A study of Mus musculus with 7 samples.

Results

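The 38 genes described here encode nuclear subunits of respiratory complexes II to V, and they were taken by symbol from a table of read counts for 26586 genes. Complex II is represented by 4 of them (the Sdh genes), complex III by 9 (the Uqcr genes and Cyc1), complex IV by 10 (the Cox genes) and complex V by 15 (the Atp5 genes). All 38 symbols were in the table. Messenger RNA was measured in 7 single mouse embryos of C57BL/6 background. They developed in vivo without treatment and were flushed from oviduct and uterus 3 days post coitum, as morulae, after matings of mice that each carry 1 mutant copy of L13a (Rpl13a, a protein of the large ribosomal subunit). The labels give no genotype for any embryo, so the 7 embryos form 1 group of unknown L13a genotype, numbered as replicates 1 to 7, and no groups were compared.

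Respiratory complexes sit in the inner mitochondrial membrane. Complex II, succinate dehydrogenase, passes electrons from succinate to ubiquinone and is also an enzyme of the citric acid cycle. Complex III passes them to cytochrome c and complex IV from there to oxygen, and complex V, ATP synthase, uses the resulting proton gradient to make ATP. All subunits of complex II are encoded in the nucleus, while complexes III, IV and V also contain subunits encoded in mitochondrial DNA, which were not analysed here. Early mouse embryos inherit their mitochondria from the oocyte and rely on oxidative phosphorylation before implantation.

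The libraries differed widely before any subunit was considered. Their totals ran from 139619 counts in replicate 6 to 33123742 in replicate 4. Rpl13a had 99, 1954, 4, 17558, 9, 1 and 403 counts in replicates 1 to 7. Of 9 transcripts that mark the morula and its first lineages, 0, 5, 2, 9, 2, 0 and 4 were counted, so these markers were absent from the libraries of replicates 1 and 6. Of 14 oocyte transcripts 13, 14, 11, 8, 7, 8 and 14 were counted, with summed levels of 12567, 14017, 13223, 4073, 701, 7728 and 21893 CPM (library-size scaled counts, the count over the library total times 1e6). In replicate 4 this sum was almost all Dppa3, at 4059 CPM, its highest level of the 7 embryos. Each other oocyte transcript stood at 6.19 CPM or less in replicate 4. Markers of oviduct and uterus summed to 1154, 1831, 152, 58.6, 1.81, 4340.4 and 219 CPM. In libraries made from whole embryos, fewer cells with a transcript and less of it per cell cannot be told apart.

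Subunit transcripts were found unevenly from embryo to embryo. All 38 were counted in replicate 4, 36 in replicate 2, 32 in replicate 7, 31 in replicate 5, 19 in each of replicates 1 and 3, and 4 in replicate 6. Of the 11810 genes with a mean of 1 CPM or more, the share counted was 84.0% in replicate 4, 72.1% in replicate 2, 69.5% in replicate 7, 27.7% in replicate 5, 41.7% in replicate 1, 29.0% in replicate 3 and 14.8% in replicate 6. Replicate 5 thus held few genes but most of the subunits, in sets of genes that were not matched for abundance. With all libraries thinned to the smallest total, 26 of 38 subunits were counted there, against 19.6% of the 11810 genes. The thinned numbers were 36 in replicate 4, against 68.7%, 33 in replicate 2, against 57.7%, 27 in replicate 7, against 55.6%, 17 in replicate 3, against 24.0%, and 15 in replicate 1, against 33.1%. In replicate 6, 4 of 38 were counted, against 14.8%. A single count there equals 7.16 CPM, enough alone to give a mean of 1 CPM over the 7 embryos. All 1749 genes counted in replicate 6 are therefore among the 11810. The filter thus raises that share, and nothing is read from the comparison in this library.

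**Figure D1:**
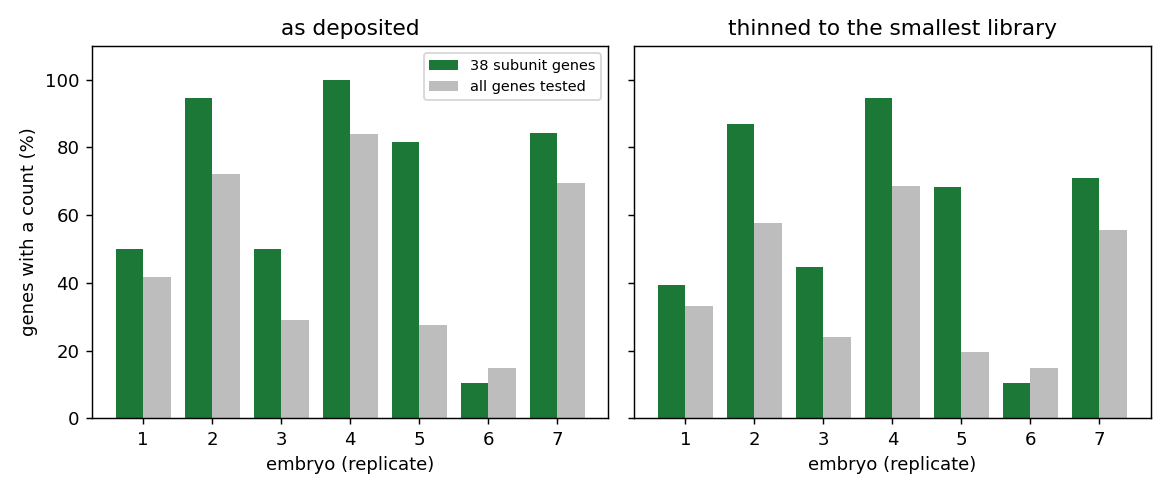
Percentage of genes with at least 1 count in each embryo, as deposited (left) and after thinning every library to the smallest total (right); green bars are the 38 subunit genes and grey bars the 11810 genes tested. The gap between the bars was widest in replicate 5, where 31 of 38 subunits were counted.

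Only 1 of the 38 genes, Cox8a, was counted in all 7 embryos, against 3.69% of the 11810 genes. A further 12 were counted in 6 embryos, 12 in 5, 6 in 4 and 4 in 3. Atp5d was counted in 2 embryos and Sdhd and Uqcr11 in 1. Of the 11810 genes, 34.0% were counted in at most 2 embryos, which can include genes that passed the filter through a single count in replicate 6. Replicate 6 decided the count in all embryos, because 12 of the 38 genes were counted in each of the other 6. The share of the 11810 genes counted in each of those 6 was not computed, so this rise is not read as a trait of the subunits. In the 4 largest libraries (replicates 2, 4, 5 and 7), 28 of 38 were counted in each, against 21.1% of the 11810 genes, a set of libraries chosen after seeing the data. The subunits and the 11810 genes were not matched for abundance here either.

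Summed over the 38 genes, the level was 4856 CPM in replicate 1, 7483 in replicate 2, 4065 in replicate 3, 18471 in replicate 4, 13517 in replicate 5, 8967 in replicate 6 and 3677 in replicate 7. Replicates 4 and 5 were therefore the high ones, and they were also the embryos with the lowest summed oocyte transcripts. The part of oocyte RNA content in these levels was not tested. The highest CPM of a gene fell in replicate 4 for 21 of 38 subunits, against 29.6% of the 11810 genes, and in replicate 5 for 11, against 7.10%. Replicate 6 held the highest level of 3 subunits, against 5.77% of the 11810 genes, replicate 3 of 2, against 8.92%, and replicate 1 of 1, against 10.9%. The 5.77% can include genes that passed the filter of a mean of 1 CPM through replicate 6 alone. No subunit was highest in replicate 2 or replicate 7, against 18.6% and 19.2%. The order of these embryos depended on the scaling: with DESeq2 size factors 14 subunits were highest in replicate 4 and 19 in replicate 5.

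**Figure D2:**
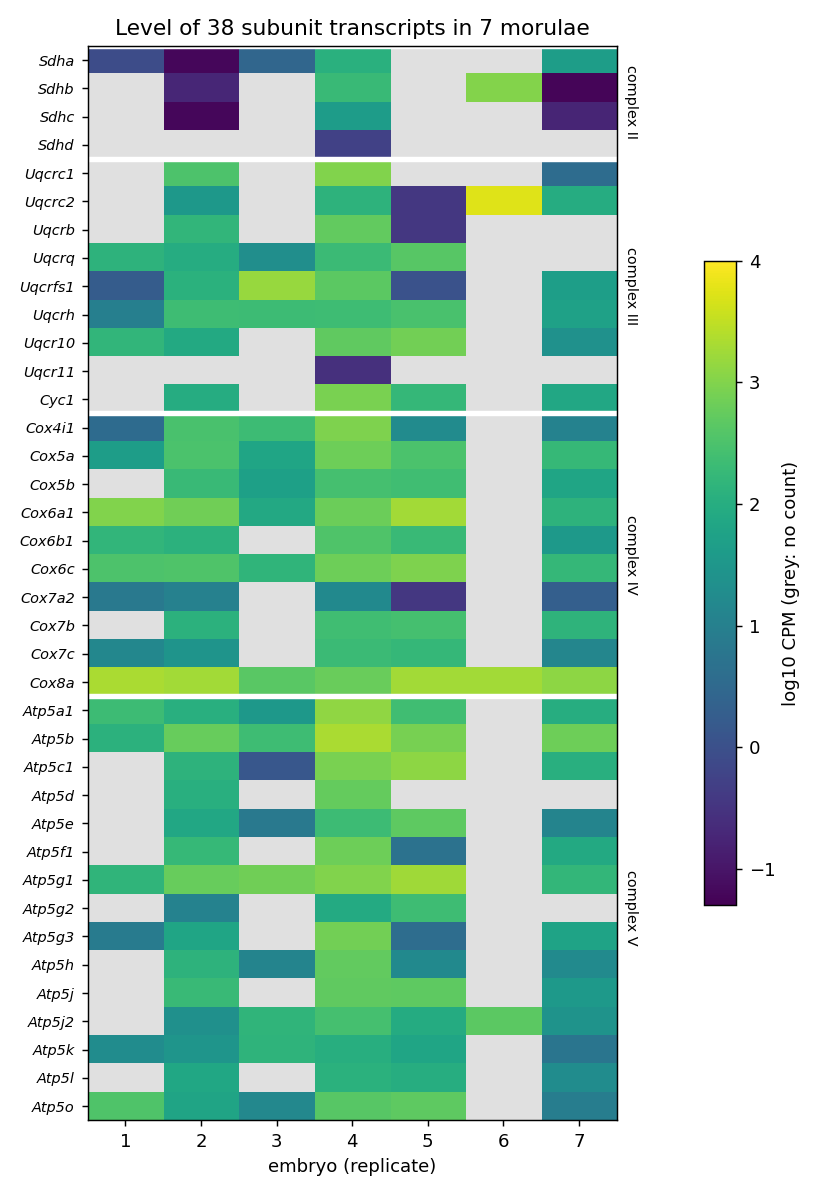
Level of each of the 38 subunit transcripts (rows, grouped by complex) in each of the 7 embryos (columns) as log10 CPM, with grey for no count. All 4 genes of complex II are coloured in replicate 4 alone, Cox8a is coloured in every column, and replicate 6 has 4 coloured cells.

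Complex II had few counts outside replicates 4, 6 and 7. Its 4 genes together had 1, 5, 2, 11645, 0, 146 and 756 counts in replicates 1 to 7. Replicate 2, with 16452890 counts in all, held 5 counts of complex II and 18920, 65418 and 38772 of complexes III, IV and V. Replicate 5 held 0 of complex II and 4555, 16099 and 16712 of the others. A count of 0 there allows a level of up to 1.09 CPM, taking 3 counts as the limit. Summed complex II reached 352 CPM (95% Poisson interval 345 to 358) in replicate 4, 0.304 CPM (0.0987 to 0.709) in replicate 2 and 44.2 CPM (41.1 to 47.4) in replicate 7. Intervals here cover counting error only, because the libraries carry no molecular identifiers.

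Within complex II each gene had its own pattern. Sdha, the flavoprotein that oxidises succinate, had 1, 1, 2, 3759, 0, 0 and 752 counts in replicates 1 to 7. Its level was 113 CPM in replicate 4, 43.9 CPM in replicate 7 and below 3 CPM elsewhere. Sdhb, the iron-sulphur subunit that carries electrons onward, had 0, 3, 0, 6457, 0, 146 and 1 counts. Its 146 counts in replicate 6 equal 1046 CPM (95% Poisson interval 883 to 1230), above the 195 CPM (190 to 200) of replicate 4. No other complex II gene was counted in replicate 6, where 3 counts equal 21.5 CPM.

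The membrane anchors were scarcer. Sdhc had 0, 1, 0, 1411, 0, 0 and 3 counts, so replicate 4 at 42.6 CPM was the one embryo above 1 CPM. Sdhd, the other anchor, had 18 counts in replicate 4, 0.543 CPM (95% Poisson interval 0.322 to 0.859), and 0 in the other 6. Per kilobase of annotated exon in replicate 4, Sdhb stood at 87.1 CPM per kb and Sdhd at 0.441, which put Sdhd at position 37 of the 38 genes. No annotated transcript of another gene matched Sdhd at 95% identity over 200 bases or more, and its exons overlap no other annotated gene.

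**Figure D3:**
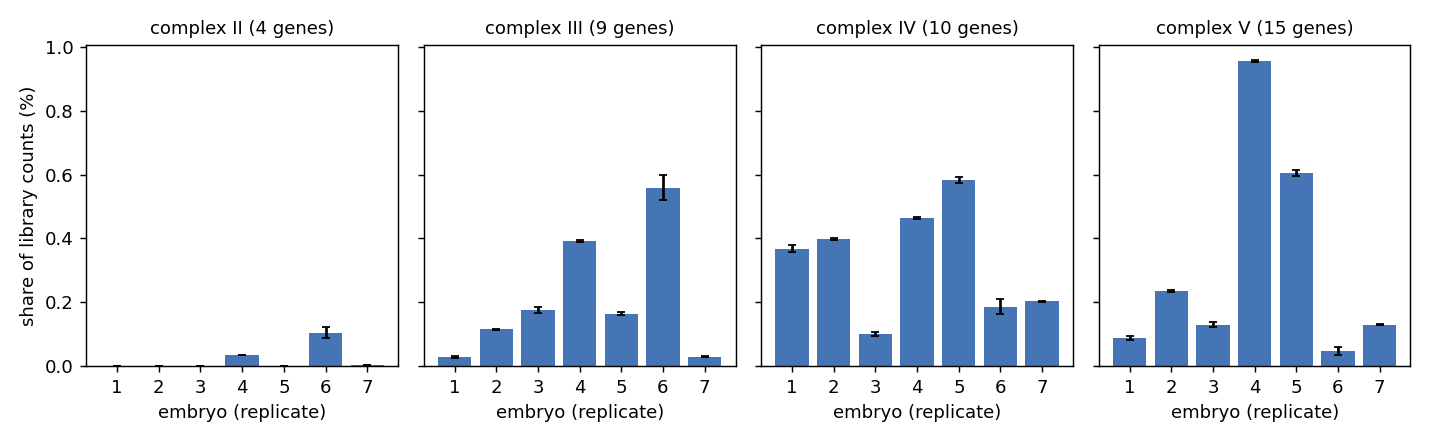
Share of all library counts taken by the genes of each complex in each embryo, with 95% Clopper-Pearson intervals as error bars (counting error only). Complex V was highest in replicate 4, complex IV in replicate 5, and complexes II and III in replicate 6, where each rests on a single gene.

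Complex III summed to 299.9 CPM in replicate 1, 1149.9 in replicate 2, 1764 in replicate 3, 3922 in replicate 4, 1648 in replicate 5, 5594 in replicate 6 and 297 in replicate 7. The sums of replicates 6 and 4 were the highest, with 1 of 9 genes counted in replicate 6 and 9 of 9 in replicate 4. That gene was Uqcrc2, a core protein of the matrix side of the complex, with 0, 543, 0, 4401, 1, 781 and 1602 counts. In CPM it stood at 5594 (95% Poisson interval 5208 to 6000) in replicate 6, 133 in replicate 4, 93.6 in replicate 7 and 33.0 in replicate 2. About 19.7% of its annotated exon bases lie over Pdzd9 on the opposite strand, which had no count in any embryo. Replicate 6 also held 3 of 10 oviduct and uterus markers (Lcn2, Ltf and Wfdc2, with Ovgp1, Pax8 and Foxj1 at 0) and 2 of 10 stroma and muscle markers (Dcn and Col1a1, with Pdgfra, Acta2 and Myh11 at 0), and their part in its Uqcrc2 and Sdhb levels was not tested. Uqcrc1, the other core protein, had 0, 5537, 0, 33288, 0, 0 and 64 counts, and so was present at 1005 CPM in replicate 4, 337 in replicate 2 and 3.74 in replicate 7, with the largest SD of log2 CPM in the complex, 5.51.

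The electron-carrying subunits of complex III also went apart. Uqcrfs1, the Rieske iron-sulphur protein, stood at 1.75, 119, 1528, 468, 1.09, 0 and 46.2 CPM in replicates 1 to 7. Its highest level was in replicate 3, where Uqcrc1, Uqcrc2, Uqcrb, Uqcr10, Uqcr11 and Cyc1 had no count. Cyc1, cytochrome c1, stood at 0, 94.9, 0, 848, 172, 0 and 76.9 CPM and was thus counted in 4 embryos. Of the small subunits, Uqcr10 had the highest mean per exon length of the complex, 371 CPM per kb, and stood at 154, 84.8, 0, 502, 753, 0 and 24.1 CPM. By longest annotated transcript Uqcrc2 was ahead, at 441 CPM per kb against 425 for Uqcr10. Uqcrh, the hinge protein that bridges to cytochrome c1, was at 9.62, 231, 215, 223, 295, 0 and 53.0 CPM, and its SD of log2 CPM, 3.87, was the smallest of the 8 genes of the complex that passed the filter of a mean of 1 CPM.

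The remaining genes of complex III marked the ends of its range. Uqcr11 had 9 counts, all in replicate 4, which is 0.272 CPM (95% Poisson interval 0.124 to 0.516). Uqcrb, named for ubiquinone binding, had 2534 counts in replicate 2, 17887 in replicate 4, 1 in replicate 5 and 0 in the others. Annotated transcripts of 3 pseudogenes match Uqcrb at 95% identity or more, so its reads could be split between loci. Gm16089, the only one of these with counts available, had 0, 7, 0, 84, 0, 0 and 0 in replicates 1 to 7. The amount of splitting was not tested. Uqcrq, another small subunit, was uncounted in replicates 6 and 7, highest in replicate 5 at 425 CPM and had a median of 97.1 CPM.

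Complex IV was the most widely counted of the complexes. All 10 of its genes were counted in replicates 2, 4, 5 and 7, 8 in replicate 1, 6 in replicate 3 and 1 in replicate 6. Its sum was 3677, 3976, 1003, 4644, 5824, 1862 and 2033 CPM in replicates 1 to 7. Cox8a, a small membrane subunit of the ubiquitous form, stood at 2151, 1823, 442, 602, 1867, 1862 and 1284 CPM. The highest of these was 4.86-fold above the lowest, a narrow range beside the other 37 genes, each of which had no count in at least 1 embryo. Replicates 3 and 4 were the low ones for Cox8a, and replicate 4 was the high one for 21 of the other 37. Its log2 CPM averaged 10.28 ± 0.96 (SD, n = 7). Cox8a (ENSMUSG00000035885.5, minus strand, chromosome 19, bases 7215153 to 7217616 in GRCm38) overlaps no other annotated exon and has no near-identical annotated transcript.

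Cox8a was the most abundant subunit transcript in replicates 1, 2, 5 and 7 and made up 44.3% of all subunit counts in replicate 1, 24.4% in replicate 2, 13.8% in replicate 5 and 34.9% in replicate 7. Its mean level per length, 2315 CPM per kb, was the highest of the 38 genes. The leading gene was Atp5b in replicate 4 (11.5% of subunit counts), Uqcrfs1 in replicate 3 (37.6%) and Uqcrc2 in replicate 6 (62.4%). The 3 leading genes took 24.1% of subunit counts in replicate 4, 40.4% in replicate 5, 41.7% in replicate 2 and 57.8% in replicate 7, against 66.1% in replicate 3, 71.7% in replicate 1 and 94.8% in replicate 6. Replicates 1, 3 and 6, in which few genes held most counts, were also the smallest libraries.

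The core-associated subunits of complex IV were more variable than Cox8a. Cox4i1, the ubiquitous regulatory isoform of subunit 4, stood at 3.50, 299, 216, 937, 18.1, 0 and 11.3 CPM. Cox5a, which binds next to it, was at 44.6, 317, 64.8, 687, 311, 0 and 177 CPM. Cox5b, a zinc-binding matrix subunit, was at 0, 199, 52.4, 280.04, 233, 0 and 64.9 CPM. All of them were highest in replicate 4 and had no count in replicate 6. In replicate 5 Cox4i1 was 1 of 2 subunits of the complex under 100 CPM.

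Among the other small subunits, Cox6a1 stood at 978, 704, 78.5, 660.2, 1817, 0 and 132 CPM and had the next highest mean per length after Cox8a, 889 CPM per kb. Cox6c was counted in the same 6 embryos, lowest at 149 CPM (replicate 3) and highest at 943 CPM (replicate 5). Cox7b, encoded on the X chromosome, had 0, 2103, 0, 8018, 747, 0 and 2417 counts and the largest SD of log2 CPM in the complex, 5.30. Cox7c had 16, 452, 0, 6883, 471, 0 and 233 counts. Cox7a2, the non-muscle form of subunit 7a, was scarce wherever it was counted, at 6.99, 10.5, 0, 16.5, 0.362, 0 and 2.04 CPM.

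Cox6b1 and its other isoform Cox6b2, known from testis, had different patterns over the embryos. Both encode the subunit that faces the space where cytochrome c docks. Cox6b1 had 175, 2126, 0, 11616, 536, 0 and 607 counts, and Cox6b2 had 813, 7481, 3, 134, 0, 63 and 3868. Per exon length, Cox6b2 held 74.8% of the pair in replicate 1, 69.2% in replicate 2, 80.3% in replicate 7, 0.732% in replicate 4 and 0% in replicate 5. As a share of the raw counts of the pair, Cox6b2 was 82.3% (95% Clopper-Pearson interval 79.8 to 84.6) in replicate 1, 77.9% (77.0 to 78.7) in replicate 2, 86.4% (85.4 to 87.4) in replicate 7, 1.14% (0.956 to 1.35) in replicate 4, and 0% in replicate 5, with an upper bound of 0.686%. Replicates 3 and 6 had counts of Cox6b2 only, 3 and 63. The 2 embryos in which Cox6b1 held nearly all counts of the pair were again those of lowest summed oocyte transcripts. The level of Cox6b1 itself set them less apart, at 351 CPM in replicate 4 and 194 in replicate 5 against 153 in replicate 1 and 129 in replicate 2. This pair was set side by side after its values were seen and was not tested.

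Complex V summed to 879, 2357, 1295, 9553, 6045, 466 and 1303 CPM in replicates 1 to 7, with replicates 4 and 5 high and replicate 6 low. All 15 genes were counted in replicates 2 and 4, 14 in replicate 5, 13 in replicate 7, 9 in replicate 3, 6 in replicate 1 and 1 in replicate 6. The catalytic head was led by Atp5b, the beta subunit, which holds the catalytic sites. Atp5b stood at 129, 575, 225, 2132, 818, 0 and 666 CPM. Atp5a1, the alpha subunit that alternates with it, was at 219, 108, 33.1, 1324, 234, 0 and 99.3 CPM. Both were highest in replicate 4 and uncounted in replicate 6.

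The central stalk, which turns inside the head, showed less even counts. Atp5c1, the gamma subunit, stood at 0, 132.5, 1.38, 861, 1250.2, 0 and 109 CPM and had the largest SD of log2 CPM in the complex, 5.56. Per exon length it also had the highest mean in the complex, 176 CPM per kb. By longest annotated transcript Atp5b led instead, at 339 CPM per kb, with Atp5o at 204 and Atp5c1 at 194. The partner of Atp5c1, Atp5d, the delta subunit, had 1790 counts in replicate 2 (109 CPM) and 18202 in replicate 4 (549.5 CPM) and 0 in the other 5 embryos. In replicate 5, where Atp5c1 had 3456 counts, a count of 0 for Atp5d allows up to 1.09 CPM. Atp5e, the epsilon subunit, was at 0, 75.9, 6.89, 220.1, 477, 0 and 12.6 CPM, so replicate 5 held the gamma and epsilon transcripts at high level without a count of delta.

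The peripheral stalk and membrane subunits filled the middle of the range. Atp5f1, subunit b, ran from 0 CPM in 3 embryos to 685 CPM in replicate 4, with 5.06 CPM in replicate 5. Atp5h and Atp5j, further stalk proteins, were highest in replicate 4 at 532 and 519 CPM. Atp5o, the stalk protein that meets the head, was at 353, 62.8, 15.2, 411, 484, 0 and 8.64 CPM. Of its annotated exon bases, 47.9% overlap other gene models, including another model that is also named Atp5o. Whether its reads were split was not tested. Atp5j2 was the only gene of the complex counted in replicate 6, with 65 counts or 466 CPM (95% Poisson interval 359 to 593), and it had none in replicate 1. Atp5k, at 19.2, 28.9, 139, 105, 66.2, 0 and 5.67 CPM, had the smallest SD of log2 CPM in the complex, 3.24. Atp5l stood at 0, 71.5, 0, 119, 99.5, 0 and 19.2 CPM and had the lowest mean per length, 6.85 CPM per kb, and transcripts of 9 other genes match it at 95% identity or more.

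The proton-driven ring of complex V is built from many copies of subunit c, which 3 genes encode with the same mature protein and different import signals. Atp5g1 stood at 149, 589.9, 718, 995, 1782, 0 and 163 CPM, Atp5g2 at 0, 11.2, 0, 87.7, 224, 0 and 0 CPM, and Atp5g3 at 7.87, 66.8, 0, 739.7, 3.98, 0 and 59.9 CPM. Atp5g1 held the largest share of the 3 genes' counts in each of the 6 embryos with a count. That share was 95% (95% Clopper-Pearson interval 90.7 to 97.7) in replicate 1, 88.3% (87.7 to 88.9) in replicate 2, 100% (99.3 to 100) in replicate 3, 54.6% (54.2 to 55.0) in replicate 4, 88.6% (87.8 to 89.5) in replicate 5 and 73.1% (71.7 to 74.5) in replicate 7.

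The minor genes of the ring took unlike shares in the 6 libraries, each a single embryo, so a difference between embryos was not tested. Atp5g3 held 40.6% (95% Clopper-Pearson interval 40.2 to 41.0) in replicate 4 and 26.9% (25.5 to 28.3) in replicate 7, but 0.198% (0.0989 to 0.354) in replicate 5. Atp5g2 held 11.2% (10.3 to 12.02) in replicate 5, 4.81% in replicate 4 and 1.68% in replicate 2. Per exon length the order in replicate 4 changed, with 57.1% for Atp5g3 and 34.1% for Atp5g1, and in the other 5 embryos Atp5g1 remained ahead. This order depends on the length used. Annotated exons cover 4912 bases for Atp5g1 and 2181 for Atp5g3, while their longest transcripts have 4715 and 862 bases. By longest transcript Atp5g3 would lead in replicate 7 as well. A pseudogene transcript, Gm10039, matches Atp5g1 at 95% identity or more, so the count of Atp5g1 may be split.

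**Figure D4:**
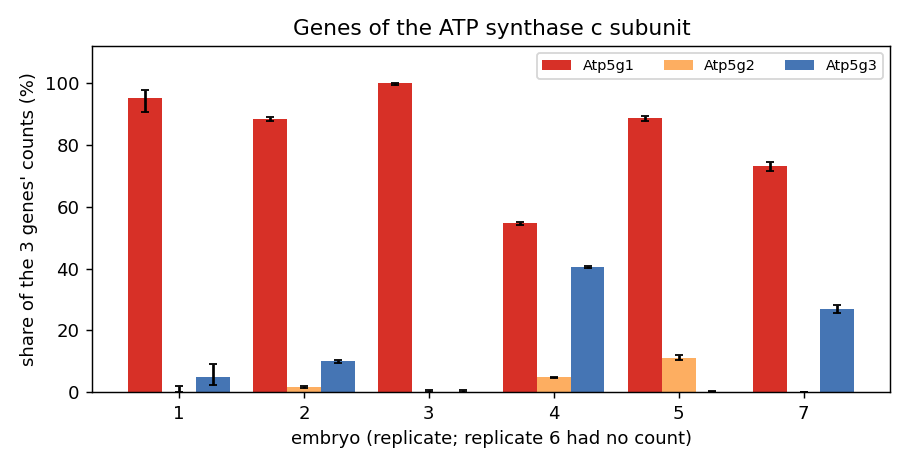
Share of the summed counts of Atp5g1, Atp5g2 and Atp5g3 in each of the 6 embryos with a count, with 95% Clopper-Pearson intervals as error bars. Atp5g1 leads in all 6, Atp5g3 reaches 40.6% in replicate 4, and Atp5g2 reaches 11.2% in replicate 5.

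Whether 1 gene of a pair stood above the other was asked for 12 pairs, as the difference of log2(CPM per kb + 1) within each embryo, which does not say whether the genes varied together. No pair passed a two-sided exact permutation test (sign flips over 7 embryos) after Benjamini-Hochberg adjustment over the 12. The smallest p that 7 embryos allow is 0.0156. Embryos in which neither gene was counted add nothing to a difference, and each of the 12 pairs had at least 1 such embryo. The lowest exact permutation p open to any pair was therefore 0.0313, too high to pass after adjustment over the 12. No conclusion about the levels follows from the lack of a pass. Atp5g1 stood above Atp5g2 by 3.51 ± 2.50 (SD, n = 7), in 6 of 6 embryos with a count, with an exact permutation p of 0.0313 and an adjusted p of 0.214. Atp5g1 exceeded Atp5g3 by 2.63 ± 3.28, in 5 of 6 embryos (exact permutation p 0.0938, adjusted 0.214). Atp5a1 was lower than Atp5b, with a difference of -0.98 ± 1.32, in 5 of 6 embryos (exact permutation p 0.0938, adjusted 0.214). Cox5a exceeded Cox5b by 0.94 ± 1.62, in 5 of 6 embryos with a count (exact permutation p 0.0938, adjusted 0.214).

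The widest spreads were those of Uqcrc1 with Uqcrc2 and of Sdha with Sdhb. Sdha minus Sdhb averaged -0.87 ± 3.85 with 3 embryos on each side (exact permutation p 0.719, adjusted 0.719), and Uqcrc1 minus Uqcrc2 averaged -1.55 ± 4.77 (exact permutation p 0.563, adjusted 0.614). Replicate 6 set the sign of both: without it the means were 0.47 and 0.045. In replicates 1, 2 and 3 neither Sdha nor Sdhb had more than 3 counts, so the direction in those embryos rests on few reads. Sdha was at or above Sdhd in every embryo and higher in 5, a difference of 1.27 ± 1.85 (exact permutation p 0.0625, adjusted 0.214). In replicates 1, 2 and 3 this rests on 1, 1 and 2 counts of Sdha. The other 5 pairs had adjusted exact permutation p from 0.214 to 0.614.

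**Figure D5:**
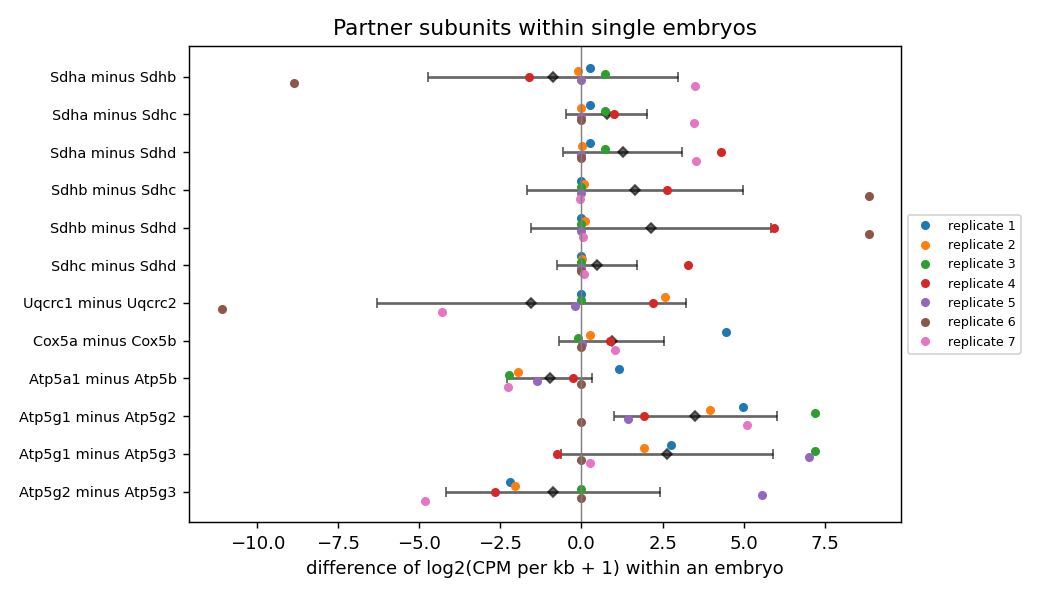
Difference of log2(CPM per kb + 1) between partner subunits within each embryo (coloured points), with the mean and SD over 7 embryos (black diamond and bar). All bars but that of Atp5g1 minus Atp5g2 cross 0, and replicate 6 lies far to one side wherever Sdhb or Uqcrc2 enters.

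The spread of single genes over the embryos was tested for all 11810 genes with edgeR, which asks whether the quasi-likelihood dispersion of a gene exceeds that of genes of like abundance. It called 0 genes (0.00%), among them 0 of the 36 subunits tested, with 68 genes and 0 subunits at an unadjusted p under 0.05. With limma on the deposited log2 values 0 genes passed, with 81 at an unadjusted p under 0.05. DESeq2 marked 0 genes as dispersion outliers. A count of 0 does not show even levels. The lowest p of a subunit was 0.0770, for Uqcrc1 (adjusted p 0.869, edgeR). The median SD of log2 CPM was 4.54 for the 36 subunits and 3.63 for all genes tested, and 31 of the 36 lay above the median of all genes. The medians were 3.95 and 3.79 without replicates 3 and 6, and 2.20 and 1.25 with all libraries thinned to the smallest total. These medians are not matched for abundance: mean log2 CPM was 4.10 for the 36 subunits and 1.40 for all genes tested. Because counts of 0 all take the same low value, a gene abundant where counted has a larger SD. The medians therefore do not show that the subunits vary more than other genes. By complex the median SD was 3.79 for II, 5.05 for III, 4.22 for IV and 4.5 for V. Sdhd and Uqcr11 fell below a mean of 1 CPM and were not tested.

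A score for each complex, the mean log2 CPM of its genes that passed the filter (3 in II, 8 in III, 10 in IV and 15 in V), was 1.27, 7.19, 1.44, 9.09, 4.05, -0.35 and 3.34 in replicates 1 to 7 for complex III, 4.62, 7.82, 3.19, 8.80, 7.68, -0.85 and 5.94 for complex IV, and 1.26, 6.87, 2.20, 9.24, 6.84, -1.39 and 4.42 for complex V. On this scaling replicate 4 was highest and replicate 6 lowest in each of them. With DESeq2 size factors replicate 5 was highest for complex IV, and for complex III the lowest was replicate 1 after thinning. By the median over subunits, replicates 3 and 6 were tied as lowest for complex III, at the value of a count of 0. Complex II scored -1.34, -1.49, -0.94, 7.07, -2.07, 1.71 and 0.83, with replicate 5 lowest. Over all 11810 genes the mean was 0.92, 3.09, 0.09, 4.03, -0.12, -0.90 and 2.72, so replicate 5 was low for genes in general. Its scores for complexes IV and V, 7.68 and 6.84, stood below those of replicates 4 and 2 and above the rest.

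Other genes of the pathway were taken from fixed lists, and no member of these passed the edgeR test of spread. Complex I, which feeds electrons from NADH, had 15, 31, 5, 36, 16, 3 and 26 of 36 genes counted in replicates 1 to 7, so 16 of 36 in replicate 5 stood beside 31 of 38 for complexes II to V. Ndufb8 had the highest mean of these, at 0, 214, 0, 413, 0, 2385 and 202 CPM. Of 20 assembly factors of complex IV, 5, 17, 2, 19, 5, 0 and 13 were counted. Cox10, an enzyme on the path to the haem A of complex IV, was the most abundant of these by mean, at 933, 306, 0, 96.5, 0, 0 and 411 CPM, and so had no count in replicate 5, where all 10 subunits of the complex were counted. Of 4 complex II assembly factors, 2, 2, 0, 4, 0, 0 and 2 were counted, led by Sdhaf1 with 82, 0, 0, 466, 0, 0 and 798 counts. Of 6 complex III assembly factors, 3, 5, 2, 6, 1, 0 and 6 were counted, and Uqcc1 had the highest mean of these, with 11, 965, 585, 4760, 0, 0 and 683 counts.

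Complex V has an inhibitor, Atpif1, which blocks reverse action of the enzyme. It stood at 9.62, 141, 9.65, 189.9, 227, 0 and 108 CPM and led its list of 4 genes, of which 3, 2, 1, 4, 3, 1 and 2 were counted. Cytochrome c, Cycs, which carries electrons between complexes III and IV, stood at 0, 63.5, 157, 145, 256, 0 and 115 CPM. Of 10 other isoforms and accessory genes, 3, 6, 3, 6, 2, 1 and 4 were counted, led by Cox6b2. Of the tissue-restricted isoforms, Cox8b and Cox8c had no count and Cox7b2 had 8 counts in replicate 2. Cox7a1 had 455 counts in replicate 4 and 80 in replicate 7, and Cox4i2 had 198 in replicate 2 and 12 in replicate 4. Cox6a2 had 23, 220 and 7 counts in replicates 1, 2 and 3, and Cyct, the testis form of cytochrome c, had 652 in replicate 4. Of 10 regulators of mitochondrial genes, 3, 8, 3, 9, 6, 0 and 8 were counted, with Yy1 highest by mean, at 1261, 56.2, 0, 59.7, 14.1, 0 and 164 CPM.

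Promoters of respiratory genes are known to carry sites for nuclear respiratory factor 1 (NRF1), ETS-family factors such as GABP, and YY1. RefSeq promoter windows of build GRCm38.p6, from 250 bases before to 50 after the start, were matched for 30 of the 38 genes. An NRF1 motif, GCGCA followed directly by its own reverse complement and so the same on both strands, was in 4 of the 30 windows (13.3%), against 1.07% of 27025 genes. CCGGAAG, an ETS motif, was on either strand in 12 (40.0%), against 9.93%, and AAGATGGCG, a YY1 motif, on either strand in 2 (6.67%), against 1.64%. None of these motifs contains another. The stretches below carry the NRF1 matches and, for the ETS motif, the gene counted in every embryo beside the pair counted in 1. Each shows 30 bases on the gene's strand with the motif in capitals, which for Cox8a and Sdhd is the reverse complement of the ETS letters.
Cox6a1 (chr5:115349101-115349130, minus strand): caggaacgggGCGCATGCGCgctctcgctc
Uqcrc1 (chr9:108936668-108936697, plus strand): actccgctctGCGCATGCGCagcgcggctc
Atp5g2 (chr15:102671070-102671099, minus strand): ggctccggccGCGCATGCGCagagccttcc
Atp5k (chr5:108434430-108434459, minus strand): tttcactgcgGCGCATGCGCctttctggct
Cox8a (chr19:7217603-7217632, minus strand): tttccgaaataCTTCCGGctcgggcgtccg
Sdhd (chr9:50603877-50603906, minus strand): ccgtctcctgcCTTCCGGttcacgcttcag
Uqcr11 (chr10:80406869-80406898, minus strand): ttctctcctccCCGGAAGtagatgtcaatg

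A motif match did not go with one kind of level. The 12 genes with the ETS letters included Cox8a, counted in 7 embryos, and Sdhd and Uqcr11, each counted in 1. The 4 genes with the NRF1 letters were counted in 6 embryos (Cox6a1 and Atp5k) or in 3 (Uqcrc1 and Atp5g2). These matches describe letters in a window and show nothing about binding in these embryos.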

How the data were processed

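RNA of 7 single morulae was sequenced after poly-A capture, SMART-Seq v4 cDNA synthesis and Nextera XT library preparation, per the labels' protocols. The deposited counts are whole numbers of reads per gene symbol with no normalization. HISAT2 2.0.5, featureCounts 1.5.0-p2, limma and GRCm38 are named in the submitters' processing notes; no source read here states the gene annotation, the strand setting or what was done with multi-mapped reads. The deposited log2 values were recomputed here as quantile-normalized log2 CPM within 3.33e-13, so they do not keep differences in depth. Samples form 1 group because the labels give no genotype, and since no label ties the embryos to separate litters, p-values reflect only how these libraries differ, in part perhaps for technical reasons.

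CPM are counts over library totals (139619 to 33123742, which set the precision of low counts). Log2 CPM used TMM factors and a prior count of 2. The test of spread (edgeR 4.0.16, R 4.3.3, intercept only, one-sided, Benjamini-Hochberg adjustment at 0.05) covered the 11810 genes of mean CPM 1 or more and was tested on simulated data, where it recovered changed genes at a low dispersion but not at one like that of these libraries. Subunit pairs were tested with exact sign flips. DESeq2 1.42.0 and limma 3.58.1 were alternatives. Lengths, positions and overlaps came from GENCODE M21 of GRCm38, with the shorter of the models named Atp5o, and near-identical transcripts from blastn 2.17.0 (95% identity, 200 bases). Of the entries in the pathway and marker lists, 15 were found under an older symbol and the 6 mitochondrially encoded genes were not analysed here. Values in every embryo are given for all of complex II, for the highest and lowest mean CPM per kb and the smallest and largest SD in complexes III to V, for core subunits, for genes counted in all 7 or at most 2 embryos, for the highest gene of each other pathway list (complex I, assembly factors, other isoforms and regulators), and for Cycs and Atpif1. Any further gene was chosen after its values were seen. The members and lists were chosen with earlier results of these data known.

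Markers of blood and immune cells summed to at most 129 CPM (replicate 6), those of stroma and muscle to at most 4348 CPM (replicate 6, mostly Dcn), and those of cumulus cells to at most 480.03 CPM (replicate 5, from Nr5a2), while 7 of the 10 cumulus markers had no count.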

Additional observations from a re-analysis of the deposited data

Results flagged for a closer look

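The log2 CPM of 36 genes and 5 scores were examined over the 7 embryos, 41 values in all. Of these, 8 had 1 embryo far from the rest by Dixon's criterion at 95%. The nominal rate of this criterion is about 1 in 20. That rate need not hold here, because the values share the same 7 libraries and counts of 0 all take the same value. The share of all genes tested that meet the criterion was not computed, so the 8 are not read as an excess. In 5 of the 8 values replicate 6, the smallest library, was low. Cox5a, Cox6a1, Cox6c, Atp5b and Atp5g1 each stood at -2.07 log2 CPM there, the value of a count of 0. The next embryo stood at 5.45, 6.03, 6.95, 6.98 and 7.19. Atp5j2 stood at -2.07 in replicate 1, with the next embryo at 4.80. Replicate 4 was high for Sdhc, at 5.87 against -1.26 in the next embryo, and for the score of complex II, at 7.07 against 1.71. In replicate 6 a count of 0 allows a level of up to 21.5 CPM, taking 3 counts as the limit.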

How the results depend on the processing

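The test of spread gave 0 genes and 0 subunits in each alternative run, which says nothing about stability, since the lowest adjusted p was 0.844 or more in each. The number of subunits counted in every embryo ran from 1 to 12 when 1 replicate was left out (2 without replicate 1, 12 without replicate 6), was 17 without replicates 3 and 6, and was 28 in the 4 largest libraries. For the sets with replicates left out by number, the share over all genes was not computed. After thinning to the smallest total, the SD of the score was 1.27 for complex II, 1.54 for III, 1.47 for IV, 1.71 for V and 1.47 for all subunits; the cause was not tested. Leaving out 1 replicate gave 1.42 (without replicate 4) to 3.51 for complex II and 2.18 (without replicate 6) to 3.84 for complex IV, and complex IV had 1.75 without replicates 3 and 6. The subunits highest in replicate 5 numbered 19 with DESeq2 size factors; the cause was not tested. Sdha minus Sdhb ran from -1.60 to 0.47 with 1 replicate left out and was 0.41 without replicates 3 and 6, and Uqcrc1 minus Uqcrc2 ran from -2.23 to 0.045 and was 0.054. Of the alternatives run, the sign turned only in those without replicate 6. The other 128 of 132 pair values kept their direction. Their adjusted exact permutation p, 0.188 or more in all 132, says nothing about stability, because so few embryos with a difference could not pass. The settings that leave out replicates 3 and 6 for the test of spread and keep the 4 larger libraries were added after seeing the data. No paired analysis was possible because the labels give 1 group.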
